A study of Mus musculus with 7 samples.

Results

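The genes examined encode 10 proteins that set how long inflammatory mRNAs last: the Regnase genes Zc3h12a, Zc3h12c and Zc3h12d, the ZFP36 genes Zfp36, Zfp36l1 and Zfp36l2, the Roquin genes Rc3h1 and Rc3h2, and Arid5a and N4bp1. They were chosen by name, but with earlier results of these data known. All 10 of the 55414 genes in the table passed the filter on low counts. They were measured by RNA-seq in purified Paneth cells (PCs), the granulated secretory cells of the small intestinal crypts, from C57BL/6J mice that had received PBS (control) or tumour necrosis factor (TNF). Cells were collected 15 h after injection from 3 PBS and 4 TNF mice, 1 library per mouse. No transgene or mutation is given for either group. Antibodies of the sort, dose, route, sex and age were not stated by the submitters.

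Cytokine and chemokine mRNAs are short-lived, because their 3′ untranslated regions (UTRs) hold AU-rich elements or small stem-loops that recruit decay factors. ZFP36 proteins, of which tristetraprolin is the founding member, bind AU-rich elements and bring in the CCR4-NOT deadenylase. Roquins bind stem-loops and do the same, whereas Regnases are endonucleases that cut such stem-loops in translated mRNAs. Arid5a stabilises some of the mRNAs that Regnase-1 destroys, and N4bp1 carries a nuclease-like domain and restrains NF-kB signalling. NF-kB, the transcription factor activated by TNF, switches on several of these genes, so they form part of the feedback on inflammation.

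Libraries held 15511455 to 19193721 counts. The PC markers were present in every library, with a summed level of 187144 to 311679 CPM after PBS and 175492 to 321214 CPM after TNF (CPM are counts per 1e+06 counts of a library after TMM scaling, edgeR's correction for differing RNA composition). The 14 leukocyte markers summed to at most 32.2 CPM, with Cd3e and Tyrobp among those at 0 counts, and the 8 stromal and endothelial markers to at most 0.448 CPM, with Kdr and Col1a2 at 0. Tuft cell markers summed to 1406 to 2325 CPM after PBS and 265 to 678 CPM after TNF, with 6 of 6 lower. Enterocyte markers summed to 196 to 296 CPM and 28.9 to 35.6 CPM (6 of 7 tested lower), and intestinal stem cell markers to 3585 to 4908 CPM and 2029 to 2788 CPM (6 of 7 lower). Goblet cell markers summed to 7411 to 14135 CPM after PBS and 6788 to 7416 CPM after TNF (4 of 7 lower and 1 higher). Among them, and chosen after the values were seen, Fcgbp had 1885 to 4458 CPM after PBS and 44.6 to 86.5 CPM after TNF. Muc2 overlapped between the groups (3434 to 6981 and 5533 to 6281 CPM), and Spdef was higher after TNF (121 to 150 and 273 to 490 CPM). Of the 10 PC markers 2 were lower and 1 was higher. Enteroendocrine markers summed to 26.5 to 97.9 CPM after PBS and 18 to 32.2 CPM after TNF (3 of 7 lower). These counts of markers are calls as defined in the next paragraph. Of all tested genes 30.1% were called lower and 29.5% higher, so the PC and enteroendocrine counts were not far from those shares. In bulk samples, fewer cells of a type and less RNA per cell cannot be told apart, and the part of these cell types in the results that follow was not tested.

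Of the 10 genes, 6 rose after TNF (Arid5a, Zc3h12a, Zfp36, N4bp1, Zc3h12c and Zc3h12d), 1 fell (Zfp36l1) and 3 were not called (Zfp36l2, Rc3h1 and Rc3h2). Calls are those of edgeR with an adjusted p under 0.05, and genes called are termed differentially expressed genes (DEGs). All 6 rises were at least 2-fold, although that of Zc3h12d (log2 fold change 1.01) was 0.86 with scaling by total counts and between 0.95 and 0.99 without PBS replicate 2 or 3 or TNF replicate 1 or 2. In 7 genes (the 6 and Rc3h1) all TNF libraries lay above all PBS libraries, and in Zfp36l1 below them. TNF changed much of the transcriptome, so these counts are read against all 14329 tested genes, of which 59.6% were DEGs, 29.5% were higher, 30.1% were lower, and 14.4% were higher by at least 2-fold. The libraries of the 2 groups did not overlap in 60.7% of tested genes, with TNF above in 29.9% and below in 30.9%. The median log2 fold change of the 10 genes was 1.19, against 0.0017 over all tested genes. The plot of levels by library shows each value.

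**Figure D1:**
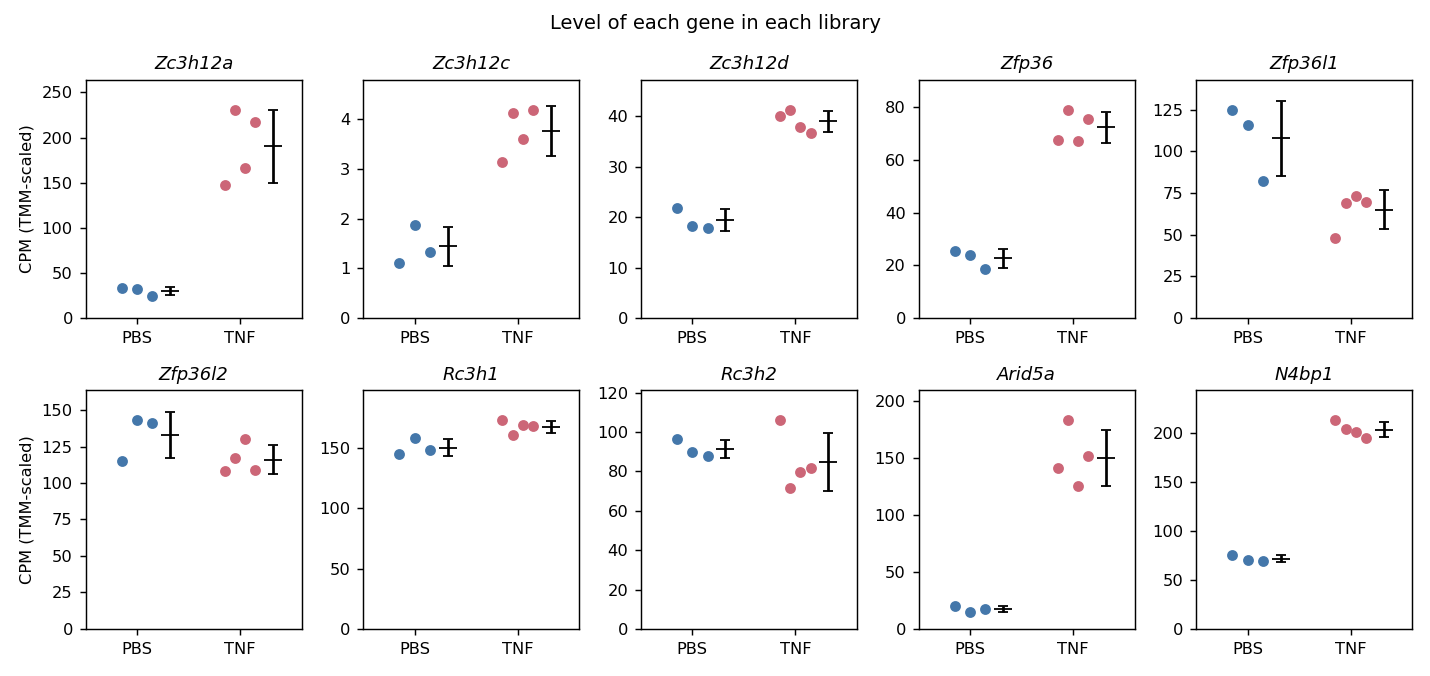
Level of each of the 10 genes in CPM (vertical axes, each starting at 0) in the 3 PBS libraries (blue) and the 4 TNF libraries (red), with the mean and SD beside each group. All TNF libraries lie above all PBS libraries for Zc3h12a, Zc3h12c, Zc3h12d, Zfp36, Arid5a, N4bp1 and, by a small margin, Rc3h1, and below them for Zfp36l1.

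The Regnase genes all rose, but from very different levels. Zc3h12a (ENSMUSG00000042677, GRCm39 chromosome 4, 125012216 to 125021711) encodes Regnase-1, which degrades Il6 mRNA and its own mRNA. It stood at 33.7, 32.3 and 24.7 CPM after PBS and at 147, 231, 166 and 217 CPM after TNF. The lowest TNF library was far above the highest PBS library, and Zc3h12a rose 6.29-fold (log2 fold change 2.65 ± 0.18 SE, edgeR adjusted p = 6.81e-08). Its signed log2 fold change was above that of 96.6% of all tested genes.

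Zc3h12d (ENSMUSG00000039981, chromosome 10, 7708080 to 7746160) encodes Regnase-4, best known from lymphocytes. It had 21.9, 18.3 and 17.9 CPM after PBS and 40.1, 41.3, 37.8 and 36.7 CPM after TNF. The libraries within each group were close together, and the rise was 2.01-fold (log2 fold change 1.01 ± 0.12, edgeR adjusted p = 7.43e-06). The summed leukocyte markers ran from 24.2 to 32.2 CPM after PBS and from 13.4 to 26.5 CPM after TNF, and their part in this result was not tested. Zc3h12c (ENSMUSG00000035164, chromosome 9, 52020873 to 52080106), which encodes Regnase-3, was the scarcest of the 10 genes. Its levels were 1.11, 1.88 and 1.33 CPM after PBS and 3.13, 4.13, 3.59 and 4.19 CPM after TNF, from 80 and 257 counts in all. The groups did not overlap, and it rose 2.59-fold with a wide 95% interval of 0.63 to 2.12 on the log2 scale (edgeR adjusted p = 0.00363). The remaining family gene, Zc3h12b, which is not among the 10, had 18 counts in all after PBS and 0 after TNF, and was too low to be tested.

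Per kb of the canonical transcript, the summed level of these 3 Regnase genes went from 15.4 ± 2.11 CPM per kb (SD, n = 3) to 76.7 ± 14.3 CPM per kb (SD, n = 4). Zc3h12a made up 66.6% to 71.6% of that sum in the PBS libraries and 84.1% to 89.3% in the TNF libraries. The family was thus mostly Zc3h12a in both groups, and more so after TNF. To see whether paralogs moved apart, log2 ratios of counts between 2 genes were formed within each library, which takes out any scaling between libraries. The ratios were tested by a two-sided exact permutation test over libraries, whose smallest possible p is 0.0286, with Benjamini-Hochberg adjustment over the 8 ratios examined. The mean log2 ratio of Zc3h12a to Zc3h12d went from 0.63 ± 0.18 (SD, n = 3) to 2.26 ± 0.32 (SD, n = 4), and that of Zc3h12a to Zc3h12c from 4.39 ± 0.43 to 5.63 ± 0.13 (exact permutation p = 0.0286, adjusted p = 0.0457 for each). The ratio of Zc3h12c to Zc3h12d differed by 0.38, which is within the spread of the PBS libraries (exact permutation p = 0.229, adjusted p = 0.229).

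The ZFP36 genes moved in different directions. Zfp36 (ENSMUSG00000044786, chromosome 7, 28076209 to 28079710) encodes tristetraprolin, which destabilises Tnf mRNA. It had 25.5, 24 and 18.7 CPM after PBS and 67.4, 79, 67.2 and 75.3 CPM after TNF. Every TNF library was well above the PBS libraries, and the rise was 3.18-fold (log2 fold change 1.67 ± 0.13, edgeR adjusted p = 1.25e-07).

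Zfp36l1 (ENSMUSG00000021127, chromosome 12, 80154528 to 80160006) was the only one of the 10 genes called lower. Its levels were 125, 116 and 82.2 CPM after PBS and 47.8, 68.8, 73.5 and 69.7 CPM after TNF. The groups did not overlap, although PBS replicate 3 was closer to the TNF libraries than to the other PBS libraries. The log2 fold change was -0.73 ± 0.16 (edgeR adjusted p = 0.00195), or 1.66-fold lower, and it ran from -0.90 to -0.61 when each library was left out in turn. Zfp36l2 (ENSMUSG00000045817, chromosome 17, 84491132 to 84495382) had 115, 143 and 141 CPM after PBS and 108, 117, 130 and 109 CPM after TNF. PBS replicate 1 lay among the TNF libraries, and the log2 fold change of -0.20 was not called (95% interval -0.44 to 0.04, edgeR adjusted p = 0.14). Without PBS replicate 1 it was -0.29 and passed the threshold (edgeR adjusted p = 0.0428).

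The summed level of the 3 ZFP36 genes was close in both groups, with 69.8 to 82.7 CPM per kb after PBS and 67.5 to 81.2 CPM per kb after TNF, while its makeup shifted. Zfp36 held 9.47% to 11.5% of the sum in the PBS libraries and 29.3% to 35.4% in the TNF libraries. Zfp36l1 held 36.7% to 49.7% and 22.1% to 28.2%, without overlap, and the shares of Zfp36l2 overlapped (38.8% to 53.8% and 37.5% to 42.5%). The log2 ratio of Zfp36 to Zfp36l1 was -2.29, -2.27 and -2.14 after PBS and 0.50, 0.20, -0.13 and 0.11 after TNF. In counts, Zfp36 went from 0.212 times to 1.12 times the level of Zfp36l1 in the mean. The ratio of Zfp36 to Zfp36l2 rose by 1.87 on the log2 scale (exact permutation p = 0.0286, adjusted p = 0.0457 for both ratios). The log2 ratio of Zfp36l1 to Zfp36l2 differed by -0.53 with overlapping groups and did not pass the test (exact permutation p = 0.0857, adjusted p = 0.114).

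**Figure D2:**
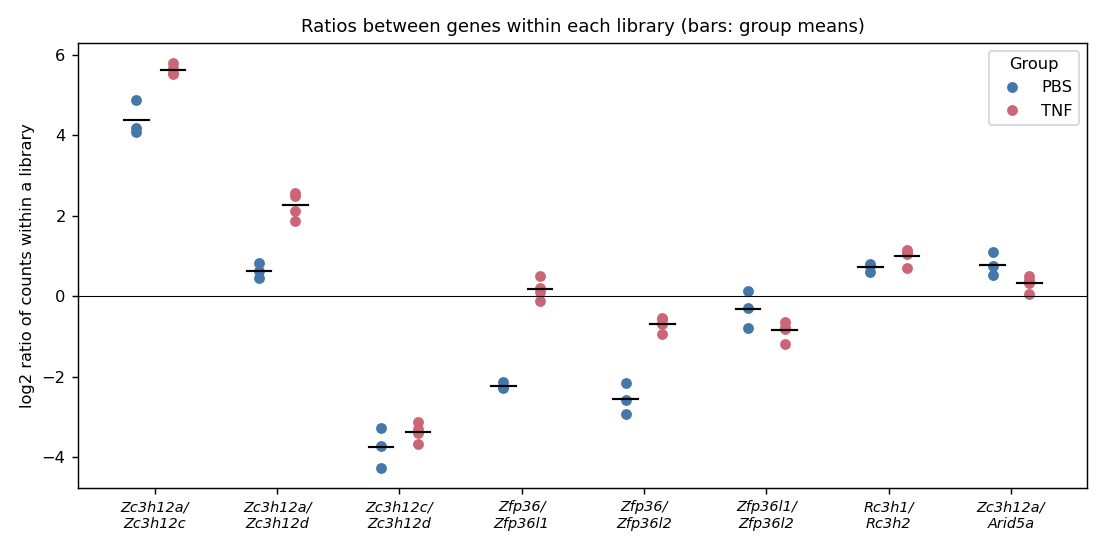
Log2 ratio of counts between 2 genes within each library (vertical axis), for the 3 PBS libraries (blue) and the 4 TNF libraries (red), with black bars at the group means. Zfp36 sits about 2 log2 units below Zfp36l1 after PBS and level with it after TNF, and the groups overlap for Zc3h12c/Zc3h12d, Zfp36l1/Zfp36l2 and Rc3h1/Rc3h2.

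The mRNAs of the ZFP36 genes themselves hold the AU-rich heptamer TATTTAT in their 3′ UTRs, as do several others of the 10 genes. The heptamer was searched on the sense strand of the canonical transcript of each gene (GENCODE M39). It was found in 6 of the 10 genes and in 32.6% of 12245 tested genes with an annotated 3′ UTR. It occurred 3 times in each ZFP36 gene, 3 times in Zc3h12c, 2 times in Rc3h1 and 4 times in Rc3h2, and 0 times in Zc3h12a, Zc3h12d, Arid5a and N4bp1. The 3′ UTR of Zfp36 is 774 bases long, so its density of 3.88 heptamers per kb was higher than in the other 9 genes and than the 0.281 per kb over all these 3′ UTRs. The 3′ UTRs of Rc3h1, Rc3h2 and Zc3h12c are 7181, 6336 and 5833 bases long, against a median of 1364 bases over the tested genes, and a longer 3′ UTR is more likely to hold a heptamer. Per kb they held 0.279, 0.631 and 0.514 heptamers, so Rc3h1 was at the density of all tested genes. The longer form TTATTTATT, to which ZFP36 proteins are known to bind, was present in 5 of the 10 genes and in 8.99% of the tested genes. Windows of 30 bases around 1 site per gene are shown 5′ to 3′, with heptamer letters in capitals, since they set the genes that hold the element apart from those that do not. The first TTATTTATT of a gene was taken, or the first heptamer for Zc3h12c, which has no longer form.
Zfp36 (chr7:28076375-28076404, minus strand): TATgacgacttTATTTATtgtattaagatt
Zfp36l1 (chr12:80154940-80154969, minus strand): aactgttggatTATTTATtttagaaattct
Zfp36l2 (chr17:84492341-84492370, minus strand): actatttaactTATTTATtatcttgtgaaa
Rc3h1 (chr1:160797613-160797642, plus strand): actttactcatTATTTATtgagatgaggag
Rc3h2 (chr2:37263298-37263327, minus strand): caaagacatttTATTTATtttactctgtaa
Zc3h12c (chr9:52026161-52026190, minus strand): gctataatcatTATTTATaggaacaaagat
The genes that hold the element include 2 of the 6 that rose (Zfp36 and Zc3h12c), the 1 that fell and the 3 that were not called. A match is a description of the sequence, and whether these sites are used in PCs was not measured.

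The Roquin genes changed little. Rc3h1 (ENSMUSG00000040423, chromosome 1, 160733982 to 160802548) encodes Roquin-1, the ubiquitin ligase and RNA-binding protein whose mutation causes autoimmunity in sanroque mice. It had 145, 158 and 148 CPM after PBS and 173, 161, 169 and 168 CPM after TNF. All TNF libraries were above all PBS libraries, but only by a little, and the log2 fold change of 0.16 was not called (95% interval -0.04 to 0.36, edgeR adjusted p = 0.163). With scaling by total counts only, its log2 fold change was -0.01. Rc3h2 (ENSMUSG00000075376, chromosome 2, 37258909 to 37313172), which encodes Roquin-2, had 96.7, 89.7 and 87.9 CPM after PBS and 106, 71.8, 79.5 and 81.7 CPM after TNF. TNF replicate 1 was the highest of all 7 libraries while the other 3 were the lowest, and no change was called (log2 fold change -0.11, 95% interval -0.38 to 0.16, edgeR adjusted p = 0.47). The intervals leave room for changes of Rc3h1 up to 0.36 and of Rc3h2 down to -0.38 on the log2 scale. The log2 ratio of Rc3h1 to Rc3h2 was 0.72 ± 0.12 after PBS and 1.00 ± 0.20 after TNF (exact permutation p = 0.114, adjusted p = 0.131). Together the Roquin genes stood at 21.9 to 23 CPM per kb after PBS and 21.6 to 25.9 CPM per kb after TNF.

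The strongest rise was that of Arid5a (ENSMUSG00000037447, chromosome 1, 36346809 to 36363110), the AT-rich interaction domain protein that protects Il6 and other mRNAs from Regnase-1. It had 20.2, 15 and 17.2 CPM after PBS and 141, 183, 125 and 152 CPM after TNF. No library of either group came near the other group, and Arid5a rose 8.61-fold (log2 fold change 3.11 ± 0.16, edgeR adjusted p = 2.34e-09), with a signed log2 fold change above that of 97.5% of all tested genes. Because Arid5a and Regnase-1 act on the same mRNAs in opposite directions, their ratio was compared as well. The log2 ratio of Zc3h12a to Arid5a was 0.74, 1.10 and 0.52 after PBS and 0.06, 0.34, 0.41 and 0.51 after TNF. The highest TNF library came right below the lowest PBS library, and the difference in means was -0.46 (exact permutation p = 0.0286, adjusted p = 0.0457). It ranged from -0.59 to -0.30 when single libraries were left out.

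N4bp1 (ENSMUSG00000031652, chromosome 8, 87534788 to 87611954) had 75.7, 69.9 and 69.7 CPM after PBS and 213, 204, 201 and 195 CPM after TNF. Relative to its level, its libraries varied less than those of the other genes that rose, and the rise was 2.83-fold (log2 fold change 1.50 ± 0.10, edgeR adjusted p = 2.55e-08). A list of genes related to N4bp1, the Regnases or the ZFP36 genes, some by their domains and some only by name, went both ways. Of 8 tested, 3 rose and 3 fell (37.5% each, against 29.5% and 30.1% of all tested genes), with a median log2 fold change of -0.24. Without the filter on low counts 9 were tested, of which 5 fell, and the median was -0.91. One of the 3 that fell was N4bp2os (chosen after its values were seen, edgeR adjusted p = 0.000412), a transcript on the strand opposite to N4bp2 rather than a gene of this protein family. Khnyn, the closest relative of N4bp1 on this list and a partner of the antiviral protein ZAP, had 82.9 ± 0.851 CPM after PBS (SD, n = 3) and fell 2.15-fold to 38.6 ± 6.08 CPM after TNF (SD, n = 4, edgeR adjusted p = 3.6e-06). Zc3hav1, which encodes ZAP, rose 1.75-fold (edgeR adjusted p = 9.39e-06). N4bp3 rose 2.41-fold and N4bp2 fell 1.87-fold (edgeR adjusted p = 1.77e-05 and 7.56e-06).

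**Figure D3:**
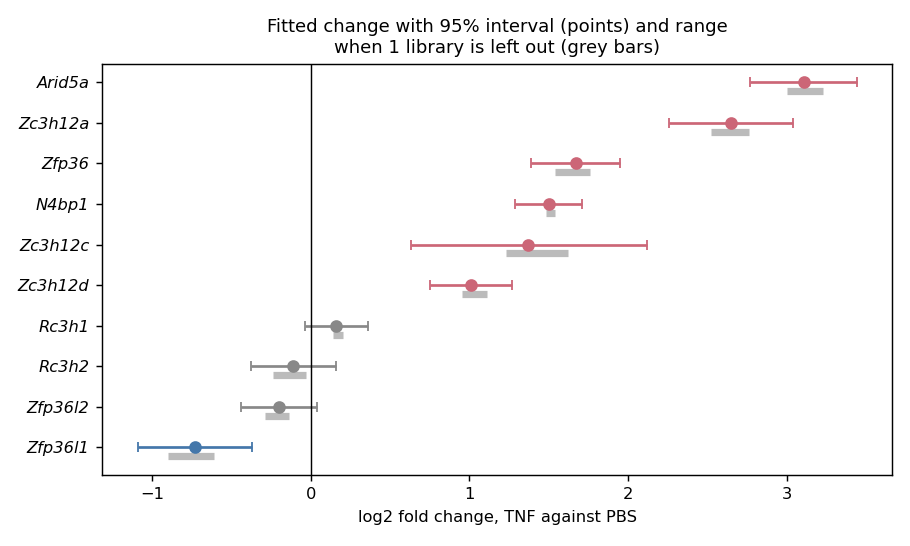
Fitted log2 fold change of each of the 10 genes, TNF against PBS (horizontal axis), with its 95% interval from edgeR. Red genes were called higher, the blue gene lower and grey genes were not called, and the grey bar under each point spans the values when 1 library is left out, for example 2.52 to 2.76 for Zc3h12a and -0.24 to -0.03 for Rc3h2.

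Levels were compared between genes as CPM per kb of the canonical transcript. After PBS, Zfp36l2 (35.4 ± 4.25) and Zfp36l1 (33.6 ± 7.05) were the most abundant, and their ranges overlapped. Rc3h1 followed at 13.7 ± 0.604, then N4bp1 at 11 ± 0.517 and Zc3h12a at 10.7 ± 1.72, which overlapped each other. Rc3h2 (8.83 ± 0.446) and Zfp36 (8.05 ± 1.28) overlapped each other and Zc3h12a, and Zc3h12d (4.57 ± 0.521), Arid5a (2.93 ± 0.437) and Zc3h12c (0.164 ± 0.0454) were lower (SD, n = 3 for all).

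After TNF the order was different. Zc3h12a, which held rank 5 after PBS, came first at 67.1 ± 14.2 CPM per kb, and its lowest library (51.9) was above every library of the next gene. N4bp1 (31.1 ± 1.16) and Zfp36l2 (30.8 ± 2.63) overlapped, as did Zfp36 (25.6 ± 2.08) and Arid5a (25.2 ± 4.13). Zfp36l1 stood at 20.2 ± 3.62, Rc3h1 at 15.2 ± 0.446, Zc3h12d at 9.18 ± 0.496, Rc3h2 at 8.18 ± 1.42 and Zc3h12c at 0.429 ± 0.0566 (SD, n = 4 for all). Arid5a also overlapped N4bp1, Zfp36l2 and Zfp36l1. The ranges of Rc3h1 and Zfp36l1 overlapped as well, as did those of Rc3h2 and Zc3h12d. The order depends on the transcript length assumed: with all annotated exons, Arid5a was at 11.8 and N4bp1 at 16.3 CPM per kb after TNF, below Zfp36l1, while Zc3h12a was still first at 48.9.

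The starts of these genes were searched for motifs of factors that respond to cytokines. RefSeq promoters (GRCm38.p6), each from 250 bases before to 50 bases after a start, were found for 9 of the 10 genes, with 2 starts for Zc3h12c. All 10 sequences had 1 exact match in GRCm39. The NF-kB consensus of 10 bases, searched on both strands, was in 0 of the 10 windows and in 4.51% of 32851 promoters. The AP-1 motif TGANTCA was present in the windows of Zfp36l1 and Rc3h1 and in 7.81% of promoters. The STAT motif TTCNNNGAA was present in Zfp36, in 8.3% of promoters. The AP-1 and STAT motifs read alike on both strands, so each match was counted once, and no window of the 10 genes held more than 1. The STAT match in Zfp36 begins 17 bases before the start. The windows are short, and no match says only that these letters are not in them.

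Next, genes that act on these proteins were examined. Of 23 tested regulators, 14 rose and 4 fell (60.9% and 17.4%, against 29.5% and 30.1% of all tested genes), with a median log2 fold change of 0.78. In the kinase cascade that phosphorylates and inactivates tristetraprolin, the kinase genes Mapkapk3 and Mapkapk2 rose 3.52-fold and 2.09-fold (edgeR adjusted p = 1.22e-08 and 1.21e-06). Upstream of them, Map2k3 rose 2.33-fold (edgeR adjusted p = 2.63e-07). Map2k6, which encodes the parallel kinase, had 72, 48.9 and 54.8 CPM after PBS and 4.65, 5.66, 4.23 and 4.06 CPM after TNF. It was thus nearly lost in every TNF library and fell 12.6-fold (edgeR adjusted p = 8.51e-10). Mapk14, the p38 kinase gene between these levels, fell 1.41-fold (edgeR adjusted p = 0.0013), and Dusp1, the phosphatase that switches p38 off, rose 5.65-fold (edgeR adjusted p = 1.13e-06).

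Regnase-1 and N4bp1 are both cut by the paracaspase Malt1, whose gene rose 1.72-fold (edgeR adjusted p = 0.000509). Bcl10, the gene of its adaptor, stood at 38.6 ± 4.3 CPM after PBS (SD, n = 3) and rose 4.76-fold to 183 ± 20.2 CPM after TNF (SD, n = 4, edgeR adjusted p = 5.59e-09). Card10, which encodes the epithelial scaffold of that complex, had a log2 fold change of -0.26 ± 0.14 and was not called (edgeR adjusted p = 0.119). Of the kinase genes of NF-kB signalling on this list, Ikbkb, whose product phosphorylates Regnase-1 and so marks it for destruction, rose 2.61-fold (edgeR adjusted p = 2.99e-07). Tbk1 rose 2.91-fold, Ikbke 2.45-fold and Chuk 1.31-fold (edgeR adjusted p = 5.79e-08, 2.4e-06 and 0.00645), and Irak1 was not called (log2 fold change -0.22, edgeR adjusted p = 0.114). Btrc, of the ubiquitin ligase that then acts on Regnase-1, fell 1.87-fold (edgeR adjusted p = 0.000106). The genes named here other than Dusp1, Bcl10, Map2k6 and Btrc were chosen after their values were seen.

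The decay machinery that these proteins recruit was examined next. Of 20 deadenylation genes, 5 rose and 6 fell (25% and 30%, near the 29.5% and 30.1% of all tested genes, median log2 fold change -0.09), with 1 rise and 3 falls of at least 2-fold, changes seen in 14.4% and 17.2% of all tested genes. The anti-proliferative genes of the BTG/TOB family, which tie mRNAs to the CCR4-NOT complex, split: Btg1 rose 3.24-fold while Btg2 and Tob1 fell 2.18-fold and 2.04-fold (edgeR adjusted p = 2.69e-07, 2.42e-06 and 1.55e-06). The scaffold gene Cnot1 fell 1.34-fold (edgeR adjusted p = 0.00151), the deadenylase gene Cnot7 rose 1.34-fold (edgeR adjusted p = 0.00469), and Noct, which encodes nocturnin, fell 2.2-fold (edgeR adjusted p = 0.000138).

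Of 18 decapping genes, 8 rose and 2 fell (44.4% and 11.1%, against the same shares of all tested genes, median 0.41). Dcp2, the decapping enzyme gene, went from 45.9 ± 0.647 to 110 ± 12.1 CPM, a 2.39-fold rise (edgeR adjusted p = 3.64e-07), while Xrn1, the exonuclease that acts after decapping, fell 1.81-fold (edgeR adjusted p = 1.52e-05). Of 17 exosome genes tested, 8 rose and 3 fell (47.1% and 17.6%, median 0.36), with Dis3, the catalytic subunit, 1.97-fold higher and Skic3, of the Ski complex, 1.89-fold lower (edgeR adjusted p = 5.49e-05 and 1.36e-05). Of 10 genes of nonsense-mediated decay, 5 rose and 1 fell (50% and 10%, median 0.42). Upf1, the helicase that works with Regnase-1, had a log2 fold change of 0.23 ± 0.10 and was not called (edgeR adjusted p = 0.0611). Some of these counts are small and moved: with total counts only, 1 deadenylation and 3 exosome genes were higher. The number of decapping genes called lower was 4 with limma and without TNF replicate 1, and without PBS replicate 2 the call of Upf2, the 1 gene of nonsense-mediated decay that fell, was lost. Apart from Btg1, Btg2, Noct, Dcp2, Xrn1, Dis3, Skic3 and Upf2, the genes of the decay machinery named here were chosen after their values were seen.

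Genes of other proteins that bind AU-rich elements were examined as well. Of 14 tested, 3 rose and 5 fell (21.4% and 35.7%, against 29.5% and 30.1% of all tested genes), with a median log2 fold change of -0.14. Hnrnpd, which encodes AUF1, rose 1.56-fold and Ncl, which encodes nucleolin, 1.61-fold (edgeR adjusted p = 0.00012 and 0.000118). The translational repressor genes Tial1 and Tia1 fell 1.73-fold and 2.05-fold (edgeR adjusted p = 0.000141 and 0.0146), although for Tia1 PBS replicate 3 (53.8 CPM) stood far above PBS replicates 1 and 2 (27.6 and 27.8 CPM), which were close to TNF replicate 1 (27.1 CPM). Elavl1, chosen after its values were seen, whose product HuR stabilises AU-rich mRNAs, was not called (log2 fold change -0.12 ± 0.10, edgeR adjusted p = 0.309).

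Finally, mRNAs known from other cells as targets of these proteins were examined. Of 20 listed for Regnase-1, Roquins or Arid5a, 12 were tested, of which 9 rose and 3 were not called (75% higher, against 29.5% of all tested genes), with a median log2 fold change of 1.62. Cxcl1, Cxcl2 and Lcn2 (0, 0 and 21 counts after PBS) passed the filter on low counts only through the TNF libraries. They could thus only be called higher, which raises this share. Without the filter 14 were tested, of which 9 rose. The number called higher was 8 with DESeq2 size factors, with total counts, and without PBS replicate 1 or 2 or TNF replicate 1, 2 or 4. Targets of immune cells were absent or nearly so, and Il12b, Il1b, Il2, Icos, Tbx21 and Calcr had 0 counts in every library. Il6, the best known target, had 0 counts after PBS and 4 after TNF, all of them in TNF replicate 2. The chemokine genes Cxcl2 and Cxcl1 had 0 counts after PBS and 6240 and 1096 after TNF, and were at least 1653-fold and at least 290-fold higher, against a floor of 3 counts over the PBS group (edgeR adjusted p = 4.2e-08 and 0.000222). For Cxcl1, TNF replicate 1 stood at 31 CPM, well above the other TNF libraries at 10.5, 12.4 and 8.7 CPM. Among targets chosen after their values were seen, Rel, an NF-kB subunit gene, went from 5.87, 6.41 and 9.7 CPM to 388, 441, 380 and 466 CPM, a 56.9-fold rise (edgeR adjusted p = 8.91e-11). Nfkbiz, a cofactor gene controlled by Regnase-1, rose only 1.4-fold with overlapping groups (edgeR adjusted p = 0.0474, close to the threshold), and Tfrc was not called (log2 fold change 0.14, edgeR adjusted p = 0.416).

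Of 27 listed targets of ZFP36 proteins, 18 were tested, of which 11 rose and 3 fell (61.1% and 16.7%, against 29.5% and 30.1% of all tested genes, median 1.48). Cxcl1 and Cxcl2, which passed the filter only through the TNF libraries, count among these rises. Without the filter 22 were tested, of which 11 rose and 3 fell. Tnf mRNA itself, the classic target of tristetraprolin, had 1.3, 1.12 and 2.02 CPM after PBS and 75.9, 111, 88.1 and 97.8 CPM after TNF, and rose 62.6-fold (edgeR adjusted p = 1.62e-10). Ier3, a survival gene, rose 18.6-fold and Plk3, a stress-response kinase gene, 7.78-fold (edgeR adjusted p = 2.93e-10 and 1.58e-07). The genes of this list that fell were the receptor gene Notch1, the survival gene Bcl2 and the cyclin gene Ccnd1. Notch1 fell 7.45-fold, Bcl2 2.29-fold and Ccnd1 1.73-fold (edgeR adjusted p = 6.71e-08, 1.05e-05 and 5.35e-05). Tnf, Ier3, Plk3 and Ccnd1 were chosen after their values were seen. Counts of mRNA at 1 time point cannot separate synthesis from decay, and all 8 genes of a list of direct TNF responses rose too (median log2 fold change 4.14). In that list, Cxcl10 and Icam1 (1 and 34 counts after PBS) passed the filter only through the TNF libraries. Cxcl1, Cxcl2, Ier3, Ptgs2 and Il1b are in both target lists, and Tnfaip3 and Birc3 are in both the ZFP36 target list and the list of direct TNF responses. Dusp1 is in the regulator list, the ZFP36 target list and the list of immediate early genes described next. That last list also shares Fos with the ZFP36 targets and Btg2 with the deadenylation genes, so the lists are not separate sets.

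Zfp36 and several of its targets are also immediate early genes, which rise when tissue is dissociated. Of 18 tested genes of that kind, 10 rose and 2 fell (55.6% and 11.1%, against 29.5% and 30.1% of all tested genes, median 0.66). The largest rise was that of Socs3, 20.7-fold, and Junb rose 6.27-fold (edgeR adjusted p = 1.91e-06 and 3.79e-09, Junb chosen after its values were seen). Egr1 rose 4.7-fold, Jun 1.9-fold (edgeR adjusted p = 5.58e-09 and 1.8e-05) and Klf6 12.8-fold (edgeR adjusted p = 2.4e-10), while Fosb fell 10.8-fold (edgeR adjusted p = 2.37e-05). Fos had 40.2, 50.9 and 82.8 CPM after PBS and 90.3, 87.5, 75.6 and 52.3 CPM after TNF and was not called (log2 fold change 0.40 ± 0.26, edgeR adjusted p = 0.22). Their part in the rise of Zfp36 was not tested.

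**Figure D4:**
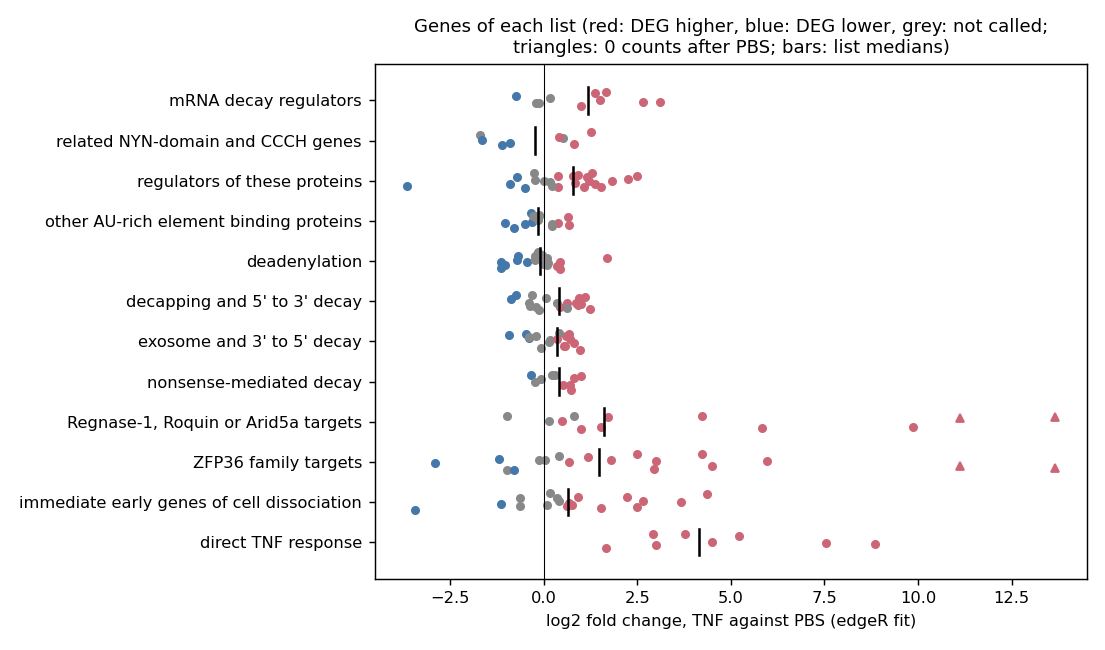
Fitted log2 fold change (horizontal axis) of each tested gene in each list (rows), red if called higher, blue if called lower and grey if not called, with black bars at the list medians. The 10 decay regulators have a median of 1.19, the deadenylation genes lie around 0, and triangles mark Cxcl1 and Cxcl2, whose fitted values depend on the prior count because they had 0 counts after PBS.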

How the data were processed

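The authors deposited raw counts, whole numbers of reads per Ensembl gene with 1 column per library. The submitters' processing notes name FastQC, Trimmomatic 0.39, STAR 2.7.10a and DESeq2, and the builds mm10 and mm39 with no role for either. How reads were assigned to genes, and whether by strand, was not given in the sources used here. Reads of overlapping antisense genes and of similar paralogs are therefore uncertain. Symbols and positions came from GENCODE M39 (GRCm39), which held 54749 identifiers (98.8%).

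Tests on counts used edgeR 4.0.16 in R 4.3.3 (quasi-likelihood, filterByExpr, TMM, robust, two-sided, 3 PBS against 4 TNF libraries), with Benjamini-Hochberg adjustment over 14329 genes. The procedure was tested on simulated data. SEs and 95% intervals were derived from the F statistic. Ratios had 0.5 counts added to each gene. Floors of 3 counts cover counting error only. Per the series text each library came from a different mouse; no 2 libraries of a group were copies (chi-square over its degrees of freedom 17 or more).

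Alternatives were DESeq2 1.42.0 (test and size factors), limma 3.58.1 (voom), total counts, TMM without the alpha-defensins and Lyz1, other filters (none, or 1 CPM in 3 libraries), a 2-fold threshold, the replicate number as a block, 0.1 or 2 counts added to ratios, and leaving out each library. The genes and lists were chosen with earlier results of these data known. Named genes were the 10 regulators, and from each list the 2 DEGs that rose most and the 2 that fell most at a mean of at least 5 CPM, not all of which are described, plus Fos, Jun and Egr1. Others were chosen after their values were seen.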

Additional observations from a re-analysis of the deposited data

How the results depend on the processing

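The same 6 genes were called higher and Zfp36l1 lower under all 9 alternatives of scaling, filter, test, block and threshold and without each single library, except that Zfp36l2 was also called lower without PBS replicate 1 and that Zfp36l1 was not at least 2-fold lower. The number called lower was therefore 0 with the 2-fold threshold and ran from 1 to 2 over the left-out libraries. The number of DEGs was 4530 with the 2-fold threshold and 7131 with the replicate number as a block. Replicates with the same number did not deviate together (correlations of -0.299, -0.0314 and -0.174), so no effect shared by a number was seen. Whether the numbers pair the mice is not stated in the labels, and these correlations cannot exclude it. The block changed no call among the 10 genes. Scaling by total counts moved the median of all genes to -0.16, the log2 fold change of Rc3h1 to -0.01, and left 7 of 10 genes without overlap in place of 8. It gave 3142 DEGs higher and 4614 lower, in place of 4229 and 4314, so the even split of all tested genes depends on the scaling. The log2 differences of the called ratios ran from 1.10 to 1.50 for Zc3h12a/Zc3h12c, 1.53 to 1.76 for Zc3h12a/Zc3h12d, 2.29 to 2.50 for Zfp36/Zfp36l1, 1.69 to 2.07 for Zfp36/Zfp36l2 and -0.59 to -0.30 for Zc3h12a/Arid5a when single libraries were left out. With 6 libraries the adjusted p cannot pass 0.05, so these losses say nothing of stability. Of the counts of calls in the other lists, 299 stayed within 1.5 times and 9 did not, and these alternatives were added after the data were seen. The block gave 4 exosome genes higher, 2 AU-rich binding genes lower and 0 genes of nonsense-mediated decay lower, and limma gave 4 decapping genes lower. With all annotated exons as length, 13 levels per kb moved by more than 1 SD. The 80 counts of Zc3h12c after PBS limit its precision.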
